A study of Mus musculus with 12 samples.

Results

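The 32 genes described here build cholesterol, fatty acids and triglycerides, or control that synthesis. They were found as gene probes whose array name equals one of 32 listed names, and all 32 were among the 16921 genes tested. The list holds 15 enzymes of the sterol pathway, 4 regulators and sterol transport genes, 9 genes of fatty acid synthesis and 4 of triglyceride synthesis. One name is an old one, since Sc4mol is now called Msmo1. All 32 stood well above background on all 12 arrays.

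Total RNA of the descending aorta was labelled with Cy3 and hybridised to 1-colour Agilent arrays, 1 array per mouse. The groups were 6 male C57BL/6 mice aged 20 months and 6 male C57BL/6 mice aged 6 months, all on standard chow, with no genetic change and no drug named in the labels. The labels say that the vessel was flushed and freed of surrounding fat and connective tissue. The title names age-related vascular gene expression as the question.

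Cells make cholesterol from acetyl-CoA through mevalonate, isoprenoids, squalene and lanosterol. Fatty acids are built from the same acetyl-CoA, which ATP citrate lyase supplies in the cytosol, and are then elongated, desaturated and joined to glycerol as triglyceride. SREBP transcription factors drive both branches, with SREBP-2 known mainly for sterol genes and SREBP-1c for fatty acid genes, and fat cells are a main site of lipid synthesis in mice.

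Every value below is a log2 signal relative to the 75th percentile of the gene probes of its array, so that a difference of 1 is a 2-fold difference. Each array measured 47.5% to 55.8% of its gene probes well above background. Each of 3 slides carried 2 mice of each age. The mice aged 20 months were all placed in column 3 and none aged 6 months were, so column and age cannot be told apart. A pair of arrays was high in heart muscle markers, 20 months replicate 1 (3.26 above the 12-array mean, over 8 genes) and 6 months replicate 1 (2.11), and 6 months replicate 4 was high in T and NK cell markers (1.80 over 6 genes). The smooth muscle myosin Myh11 lay between 6.88 and 7.19 at 20 months and between 6.33 and 7.37 at 6 months, well above background in all mice. Fat markers were also well above background in all mice, although the labels describe the removal of fat. Adipoq, the adipokine adiponectin, lay between 6.82 and 7.44 at 20 months and between 6.75 and 7.44 at 6 months. Ucp1, the uncoupling protein of brown fat, lay between 6.54 and 8.26 at 20 months and between 7.01 and 8.87 at 6 months. In such bulk tissue, fewer cells of a type and less RNA per cell cannot be told apart.

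None of the 32 genes passed the test of age. In limma's comparison over all 16921 genes, 0.313% passed an adjusted p (Benjamini-Hochberg) of 0.05, 44 of them higher (0.26%) and 9 lower (0.0532%) at 20 months, against 0 of 32 here. At an unadjusted p under 0.05 the count was also 0 of 32, beside 7.98% of all genes, and the ages were separated without overlap for 0 of 32, beside 0.798% of all genes. The smallest adjusted p among the 32 was 0.766 in limma, for Acacb, whose two-sided exact permutation p was 0.262. The estimates were below 0 for 25 genes and above 0 for 7, while over all genes 9503 were below and 7418 above. These 32 estimates are not independent, since the genes varied together from mouse to mouse. The 95% interval of the change stayed within 2-fold either way for 23 of the 32 genes and within 1.5-fold for 8, so a 2-fold change is inside the interval for the other 9.

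The sterol enzymes overlapped between the ages throughout. Their median change was -0.14, beside -0.02 for all genes, with 4 estimates above 0 and 11 below. Hmgcs1, the cytosolic HMG-CoA synthase that makes the precursor of mevalonate, had its lowest, median and highest values at 4.41, 4.54 and 5.05 at 20 months and at 4.36, 4.72 and 5.52 at 6 months. All values at 20 months lay inside the range at 6 months, and the change was -0.17 (SE 0.18, adjusted p 0.819 in limma). Mvk, mevalonate kinase, ran from 3.11 through a median of 3.31 to 3.88 at 20 months and from 3.20 through 3.52 to 3.70 at 6 months. Its change of -0.11 had the tightest interval of the sterol enzymes, from -0.38 to 0.17.

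Of the enzymes that follow mevalonate, Pmvk (phosphomevalonate kinase) ran from 4.10 through a median of 4.46 to 6.09 at 20 months and from 4.07 through 4.96 to 5.94 at 6 months. Both ages held mice at the bottom and at the top of that range. Its change of -0.28 (SE 0.37) was the most negative of the sterol enzymes, and the most positive was that of Hsd17b7, a reductase that acts on sterol intermediates, at 0.18 (SE 0.18). Mvd, mevalonate diphosphate decarboxylase, differed by -0.04 (SE 0.31), Idi1, isopentenyl diphosphate isomerase, by -0.21 (SE 0.27), and Fdps, farnesyl diphosphate synthase, by -0.17 (SE 0.24). Acat2, the cytosolic thiolase at the head of the pathway, differed by -0.21 (SE 0.33).

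The enzymes from squalene to cholesterol gave estimates on both sides of 0. Fdft1, squalene synthase, differed by 0.11 (SE 0.22) and Sqle, squalene epoxidase and a rate-limiting step, by 0.07 (SE 0.22). Lss, lanosterol synthase, differed by -0.14 (SE 0.35), Cyp51, lanosterol demethylase, by -0.15 (SE 0.23), and Sc4mol, a sterol methyl oxidase, by 0.09 (SE 0.19). Nsdhl, a decarboxylating sterol dehydrogenase, differed by -0.27 (SE 0.32) and Dhcr7, which makes cholesterol from its last precursor, by -0.10 (SE 0.29). None of these passed the test.

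The upstream sequence of Hmgcs1 and Mvk is shown because both act early in the pathway, near mevalonate, and for their motifs. Their letters match the CCAAT box and, in Hmgcs1 alone, the sterol response element TCACNCCAC. This pair of motifs is known from SREBP target promoters. Windows of 300 bases, 250 before and 50 after the annotated start (RefSeq, GRCm38.p6), were at hand for 24 of the 32 genes. The others are Sqle, Fdps, Fdft1, Stard4, Scd1, Scd2, Dgat1 and Dgat2. Capitals mark the motifs CCAAT and TCACNCCAC, each searched on both strands. Hmgcs1 is chr13:119690101-119690350, plus strand, and Mvk is chr5:114444019-114444268, plus strand, each as the 250 bases before the start.
Hmgcs1: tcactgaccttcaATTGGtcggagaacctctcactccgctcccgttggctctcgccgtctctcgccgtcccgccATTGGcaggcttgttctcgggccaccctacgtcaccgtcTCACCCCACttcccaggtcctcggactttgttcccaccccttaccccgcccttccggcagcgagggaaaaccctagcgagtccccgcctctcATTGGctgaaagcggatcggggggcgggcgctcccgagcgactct
Mvk: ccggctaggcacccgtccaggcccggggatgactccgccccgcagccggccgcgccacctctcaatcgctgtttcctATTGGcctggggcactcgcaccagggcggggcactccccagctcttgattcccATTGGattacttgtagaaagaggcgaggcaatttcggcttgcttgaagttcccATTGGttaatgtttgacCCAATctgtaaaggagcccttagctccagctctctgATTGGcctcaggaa
Hmgcs1 holds 3 CCAAT matches in this stretch and 1 match to TCACNCCAC, whose first base is at -137 from the start. Mvk holds 5 CCAAT matches and no TCACNCCAC. CCAAT was found in 20 of the 24 genes and in 11 of 12 sterol enzymes, against 41.1% of all genes with a window. Acat2, at the head of the pathway, was the sterol enzyme without it. TCACNCCAC was found in 1 of the 24, Hmgcs1, against 1.44% of all genes. A match describes letters in the window and is not a bound site.

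The regulators stayed within the spread between mice. Insig1, the sterol sensor's anchor in the endoplasmic reticulum and itself an SREBP target, ran from 0.57 through a median of 1.14 to 2.80 at 20 months and from 0.81 through 1.39 to 2.23 at 6 months. One mouse at 20 months, replicate 1, stood above all the others and the next at that age was at 1.27. Srebf1, which encodes SREBP-1, ran from 0.63 through 0.99 to 1.94 at 20 months and from 0.88 through 1.34 to 2.13 at 6 months, a change of -0.30 (SE 0.25). Srebf2, which encodes SREBP-2, had the narrowest range of all 32 genes, 0.75 over the 12 arrays. Its values were -0.31, -0.21 and 0.05 (lowest, median, highest) at 20 months and -0.58, -0.24 and 0.17 at 6 months, and its change was 0.09 (SE 0.12). A second Srebf2 probe gave 0.36 (SE 0.13, unadjusted p 0.017 and adjusted p 0.512 over all probes in limma) and correlated with the first at 0.76 over the 12 arrays. Stard4, a carrier of cholesterol between membranes, differed by -0.19 (SE 0.19).

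The genes of fatty acid synthesis had the most negative median change and the widest median range of the 4 groups. Their median change was -0.36, with 8 of 9 below 0, and none passed the test. Fasn, fatty acid synthase, had its lowest, median and highest values at 2.91, 3.97 and 6.03 at 20 months and at 3.41, 4.46 and 5.89 at 6 months. The highest and the lowest of the 12 mice were both 20 months old, and the values of the younger mice fell inside their range. The change was -0.38 (SE 0.52, adjusted p 0.873 in limma), with an interval from -1.50 to 0.73. The Fasn probe lies at chr11:120667666-120667725 in the array's mm9 positions.

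The sequence before the Fasn and Thrsp starts is shown since these genes had almost the same profile over the mice (r 0.99 over the 12 arrays). Capitals again mark CCAAT on either strand. Fasn is chr11:120824548-120824797 and Thrsp is chr7:97417551-97417800 (RefSeq, GRCm38.p6), both on the minus strand and printed as the gene reads.
Fasn: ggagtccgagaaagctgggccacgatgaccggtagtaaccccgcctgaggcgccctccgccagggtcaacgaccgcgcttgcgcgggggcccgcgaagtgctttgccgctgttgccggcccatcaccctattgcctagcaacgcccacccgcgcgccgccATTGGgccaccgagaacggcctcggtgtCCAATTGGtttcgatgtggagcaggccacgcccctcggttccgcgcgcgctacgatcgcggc
Thrsp: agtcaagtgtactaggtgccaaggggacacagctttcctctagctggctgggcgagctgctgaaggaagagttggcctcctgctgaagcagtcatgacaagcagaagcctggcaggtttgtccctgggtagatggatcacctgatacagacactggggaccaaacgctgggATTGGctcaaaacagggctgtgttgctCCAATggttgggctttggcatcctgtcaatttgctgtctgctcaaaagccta
Fasn holds 3 CCAAT matches, of which 2 on opposite strands overlap, and Thrsp holds 2. Neither window holds TCACNCCAC. Of the 7 fatty acid genes with a window, 5 hold CCAAT, while Acaca and Elovl6 hold none. Elovl6 also correlated with Fasn at r 0.99. A link between motif and profile was not tested.

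The suppliers of fatty acid synthesis overlapped between the ages in the same way. Acly, ATP citrate lyase, had its lowest, median and highest values at 5.93, 6.90 and 8.73 at 20 months and at 6.56, 7.50 and 8.69 at 6 months, a change of -0.43 (SE 0.48). Me1, the malic enzyme that supplies NADPH, ran from 4.92 through a median of 5.78 to 7.27 at 20 months and from 5.17 through 5.82 to 6.93 at 6 months. It was the only one of the 9 with an estimate above 0, at 0.05 (SE 0.42). Acaca, the acetyl-CoA carboxylase that makes malonyl-CoA in the cytosol, ran from 5.73 through 6.57 to 7.96 at 20 months and from 6.15 through 7.17 to 8.17 at 6 months. The change of Acaca was -0.44 (SE 0.41), the most negative of all 32, and its other 2 probes gave -0.28 and -0.42. Acacb, the carboxylase of the mitochondrial surface, differed by -0.43 (SE 0.33).

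Enzymes that modify the fatty acid chain overlapped between the ages too. Elovl6, which elongates palmitate, spanned the widest range of the 32 genes, 3.29 or 9.75-fold between the highest and the lowest array. Its lowest, median and highest values were 3.005, 4.31 and 6.29 at 20 months and 3.60, 4.66 and 6.25 at 6 months. Both extremes again came from mice of 20 months. Scd1 and Scd2, stearoyl-CoA desaturases that make monounsaturated fatty acids, differed by -0.17 (SE 0.27) and -0.36 (SE 0.36). Thrsp, the lipogenic protein Spot 14, differed by -0.28 (SE 0.37).

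The triglyceride genes gave a median change of -0.15, with 1 of 4 above 0. Agpat2, an acyltransferase that makes phosphatidic acid, ran from 4.77 through a median of 5.29 to 6.86 at 20 months and from 5.16 through 5.42 to 6.77 at 6 months, a change of -0.24 (SE 0.36). Gpam, the mitochondrial acyltransferase that starts glycerolipid synthesis, differed by -0.31 (SE 0.25). The last step is shared by Dgat1 and Dgat2, which differed by 0.08 (SE 0.18) and -0.06 (SE 0.16).

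**Figure D1:**
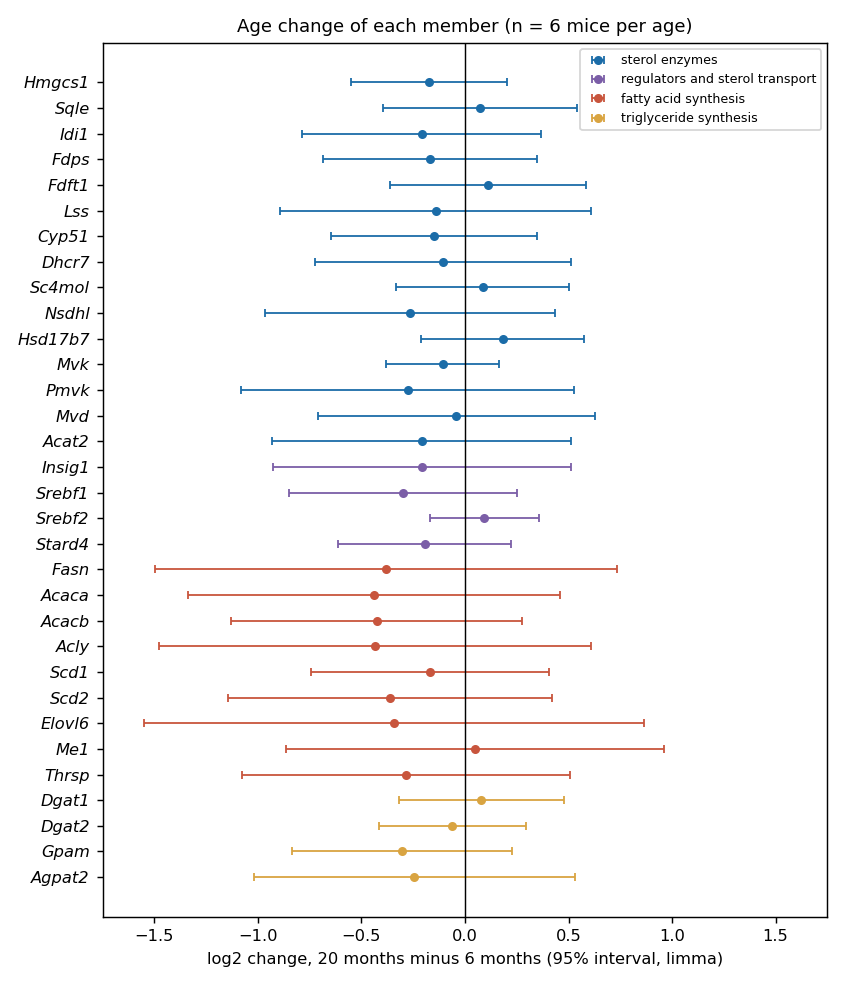
Log2 change of each of the 32 genes at 20 months minus 6 months (horizontal axis) with its 95% interval from limma, coloured by gene group, 6 mice per age. Every interval crosses 0, and the widest runs from -1.55 to 0.86, for Elovl6.

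The difference between the branches was smaller than the spread between mice. The median change of the sterol enzymes exceeded that of the 13 fatty acid and triglyceride genes by 0.16, namely -0.14 against -0.31. As group means per array, sterol minus fatty acid and triglyceride genes was 0.08 ± 0.25 at 20 months and -0.08 ± 0.28 at 6 months (SD, n = 6 each), 0.16 apart, less than either SD. The change of the sterol group mean was 0.21 within slide 1, -0.10 within slide 2 and -0.39 within slide 3. For the 13 fatty acid and triglyceride genes it was 0.04, -0.32 and -0.48 in the same slides. The change of sterol minus fatty acid and triglyceride genes was thus 0.17, 0.22 and 0.10, above 0 within each slide and not tested. Single mice moved these values: without 20 months replicate 1 the fatty acid and triglyceride median was -0.52 and 30 of 32 estimates were below 0, without 20 months replicate 6 it was -0.10, and without 6 months replicate 6 it was -0.12. Without 6 months replicate 3 it was -0.16. In each of these settings 0 of 32 genes passed, the smallest adjusted p in limma being 0.214 without 20 months replicate 1. Leaving out the 3 arrays high in heart muscle or T and NK cell markers gave -0.61 for that median and -0.32 for the sterol enzymes, again with 0 called.

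Mice of the same age differed widely in many of these genes. The SD within an age lay above the 95th percentile of all genes for 16 of the 32, where 5.01% of all genes lie by construction. These were 8 of 9 fatty acid genes, 6 of 15 sterol enzymes, 1 of 4 regulators and 1 of 4 triglyceride genes. The exception among the fatty acid genes was Scd1, just below that mark at the 94.5th percentile. The range over the 12 arrays had a median of 2.35 over the fatty acid genes, 1.53 over the sterol enzymes and 0.68 over all genes. Mvk and Srebf2 lay near the middle of all genes, at percentiles 58.1 and 55.8.

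**Figure D2:**
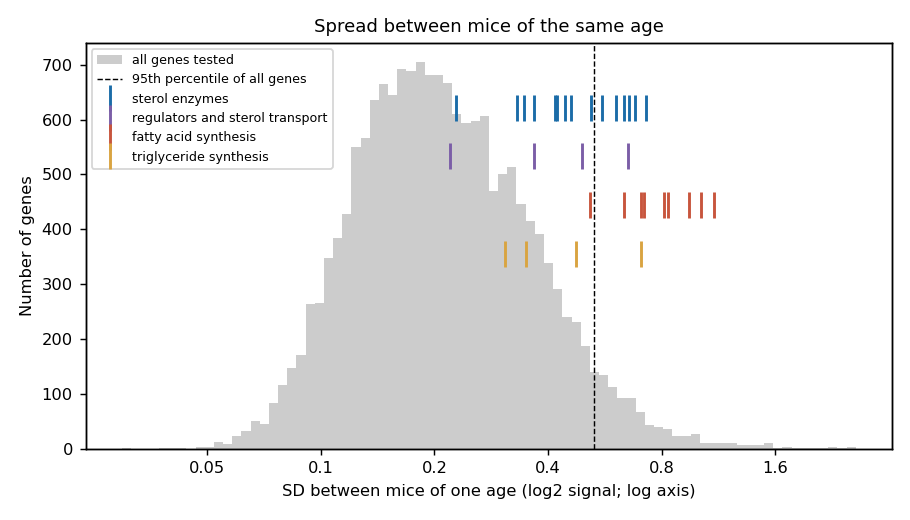
SD between mice of one age (log2 signal, horizontal axis on a log scale) for all 16921 genes as a grey histogram and for the 32 genes as coloured ticks, with the 95th percentile dashed. Of the 9 red ticks of the fatty acid genes, 8 lie beyond the dashed line, and the sterol enzymes reach from the middle of the histogram to past it.

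The same few mice were high for most of the genes. The highest array was 20 months replicate 1 for 21 genes and 6 months replicate 6 for 9, and the lowest was 20 months replicate 6 for 20. Me1 peaked in 20 months replicate 3 and Srebf2 in 6 months replicate 2. The 3 arrays 20 months replicate 1, 6 months replicate 3 and 6 months replicate 6 were the top 3 for 19 genes, among them 8 of 9 fatty acid genes and 8 of 15 sterol enzymes. For the mean over the fatty acid genes these 3 arrays lay 1.12, 0.91 and 1.09 above the 12-array mean. The lowest arrays were 20 months replicate 6 at -1.23 and 6 months replicate 5 at -0.82. High and low mice thus occurred at both ages. The shares of all genes that are highest, lowest or in the top 3 on these arrays were not computed. Of these arrays, 20 months replicate 1 was also high in heart muscle markers.

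**Figure D3:**
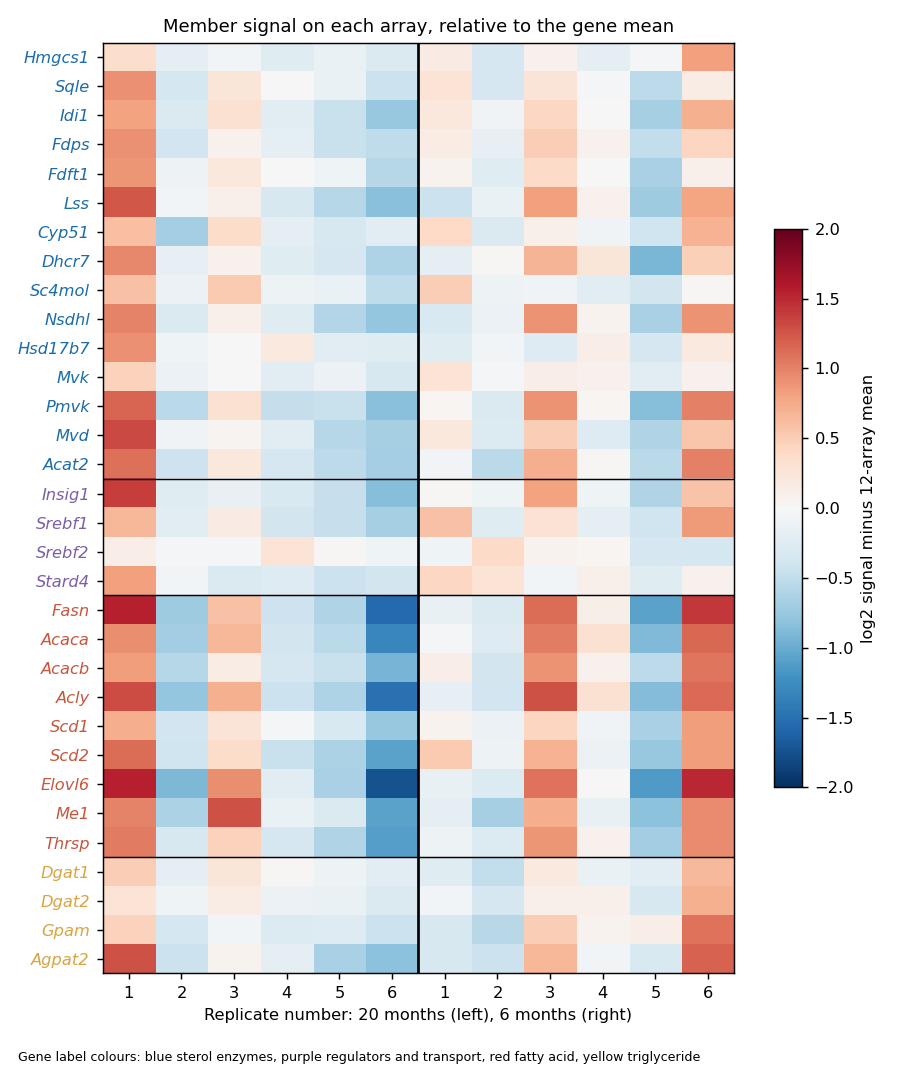
Log2 signal of each of the 32 genes (down the page, by group) on each of the 12 arrays, 20 months left and 6 months right, relative to the mean of the gene. Columns 20 months replicate 1 and 6 months replicate 6 are red and 20 months replicate 6 and 6 months replicate 5 blue over most genes. Exceptions include Srebf2 in 6 months replicate 6, its lowest array, and Gpam in 6 months replicate 5.

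The genes varied together over the mice. With the age means removed, the correlation of 2 genes over the 12 arrays had a median of 0.97 among the fatty acid genes, 0.91 among the triglyceride genes and 0.84 among the sterol enzymes. Between sterol enzymes and fatty acid genes it was 0.90. Over all 496 pairs the median was 0.85, against 0.00 for pairs of the 32 with other genes. These values are a description, and the pairs share arrays and scaling. Srebf2 had a median of 0.08 with the other members and Stard4 one of 0.55.

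Fasn served as the reference profile, chosen after its values had been seen. With the age means removed, its median r with the other members was 0.93, above that of every other member. Taking the most central profile as reference favours a high count. The count and the permutation p values for Fasn are thus a description and no separate test of whether the genes vary together. Of the other 31 genes, 29 correlated with Fasn by both Pearson's r and Spearman's rho, and Stard4 by rho alone. The cut was an adjusted permutation p under 0.05 over 31 relations (100000 permutations, n = 12). The share of all genes at that adjusted p was not computed. The r was above 0.7 for 27 of the 31, beside 13.4% of all genes. Among fatty acid genes r ran from 0.92 for Me1 to 0.99 for Elovl6, and Thrsp and Acly also reached 0.99. Among sterol enzymes the highest was Pmvk, at r 0.98 and rho 0.98, and the lowest was Hsd17b7, at r 0.63 and rho 0.59 (adjusted permutation p 0.0203 and 0.0473). For Hsd17b7, r fell to 0.25 without the 2 mice farthest from the median of Fasn, and for Hmgcs1 it fell to 0.50, with r 0.74 over all mice. The median r of the sterol enzymes was 0.90 without those 2 mice, 0.96 within 20 months, 0.91 within 6 months and 0.87 with the slide means removed.

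The regulators parted from each other. Insig1 followed Fasn at r 0.92 and rho 0.92 (adjusted permutation p 5.47e-05 and 0.000143). Srebf1 followed it at r 0.87 and rho 0.90 (adjusted permutation p 0.000775 and 0.000346). Srebf2 had r 0.03 and rho 0.22 (adjusted permutation p 0.927 and 0.495). Stard4 had r 0.57 and rho 0.59, with an adjusted permutation p of 0.0518 for r and 0.0473 for rho. These values hung in part on single mice. Without the 2 mice farthest from the median of Fasn, the lowest r of the 4 genes was 0.31, against 0.03 over all mice. Their median r fell from 0.72 to 0.53.

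**Figure D4:**
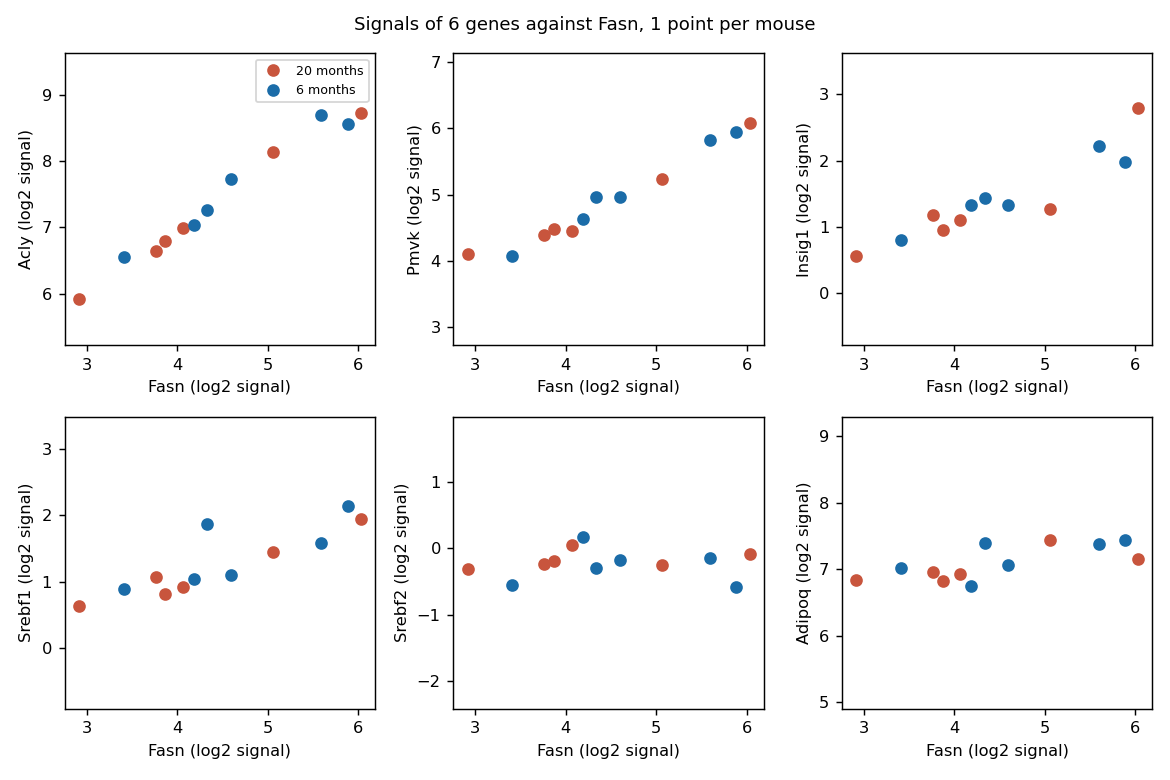
Log2 signal of 6 genes (vertical axes, each spanning the same range around its mean) against that of Fasn (horizontal axes), 1 point per mouse, 20 months red and 6 months blue. Acly (r 0.99) and Pmvk (r 0.98) lie on a line on which both ages mix, while Srebf2 (r 0.03) shows no slope over all mice.

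Several marker lists also deviated on the 3 arrays with the highest fatty acid genes and on the lowest 2. The mean over 12 adipocyte markers deviated by 0.44, 0.38 and 0.45 on the 3 arrays with the highest fatty acid genes, in the order given above, and by -0.39 and -0.22 on the lowest 2. The mean over 8 smooth muscle markers deviated by -0.27, -0.32 and -0.46 on those 3 arrays and by 0.20 and 0.18 on the lowest 2. For 10 brown adipocyte markers the mean was 0.31, 0.50 and 0.61, then -0.16 and -0.02. On 20 months replicate 3 the brown adipocyte mean was -0.41, while the fatty acid genes were at 0.60. For 8 endothelial markers the mean was 0.06, 0.04 and 0.15, then -0.08 and -0.08. For 8 macrophage markers it was 0.48, 0.23 and -0.23, then 0.06 and -0.14. Over the whole lists, 0 of 12 adipocyte, 0 of 10 brown adipocyte and 0 of 8 smooth muscle markers were called between the ages. Their median changes were -0.16, -0.26 and 0.02. Estimates were below 0 for 11 of the adipocyte, all 10 of the brown adipocyte and 3 of the smooth muscle markers. At an unadjusted p under 0.05 in limma, the counts were 0, 2 and 0, beside 7.98% of all genes. Ucp1 itself differed by -0.64 (SE 0.31, adjusted p 0.660 in limma). The adipocyte mean ran from -0.39 to 0.44 at 20 months and from -0.29 to 0.45 at 6 months. The smooth muscle mean ran from -0.27 to 0.20 at 20 months and from -0.46 to 0.18 at 6 months. Between the ages, the 6 mesothelial markers were at a median of -2.17, all 6 with an unadjusted p under 0.05 in limma. Of these, 0 had an adjusted p under 0.05 in limma (lowest 0.184, for Msln). The 8 macrophage markers were at a median of 0.24, with all 8 above 0. Among them, 3 had an unadjusted p under 0.05 in limma and 0 were called. The part of any of these tissue markers in the values of the 32 genes was not tested.

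By single marker genes, the median r of the 32 with Adipoq was 0.69, against 7.54% of all genes above 0.7 and 16 of the 32. With Myh11 the median was -0.66, with 11 of the 32 below -0.7, beside 8.24% of all genes. Over the 128 relations with 4 marker genes, chosen after values were seen, 16 genes passed for Adipoq, 17 for Myh11, 2 for Ucp1 and 0 for the endothelial gene Pecam1 by Pearson's r at an adjusted permutation p under 0.05. By r and rho together only 1 passed for Adipoq and 2 for Myh11. The share of all genes at that adjusted p was not computed. By r above 0.7 there were 2 of the 32 for Ucp1, beside 3.11% of all genes, and 0 for Pecam1, beside 0.52%. The median r over all mice was 0.50 with Ucp1 and 0.14 with Pecam1. Without the 2 mice farthest from the median of each marker gene, it was 0.63 with Adipoq, -0.64 with Myh11, 0.21 with Ucp1 and 0.64 with Pecam1. With the slide means removed, the median r with Pecam1 was -0.38. The counts for Adipoq and Myh11 also depended on how the arrays were scaled, since quantile normalization left 2 for Adipoq and median scaling 0 for Myh11. The count for Fasn stayed between 27 and 30 in the 7 settings tried, all added after the data were seen. Settings that changed only the filter on dim probes could not alter that count. The probes used for all 32 genes were well above background on all 12 arrays.

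**Figure D5:**
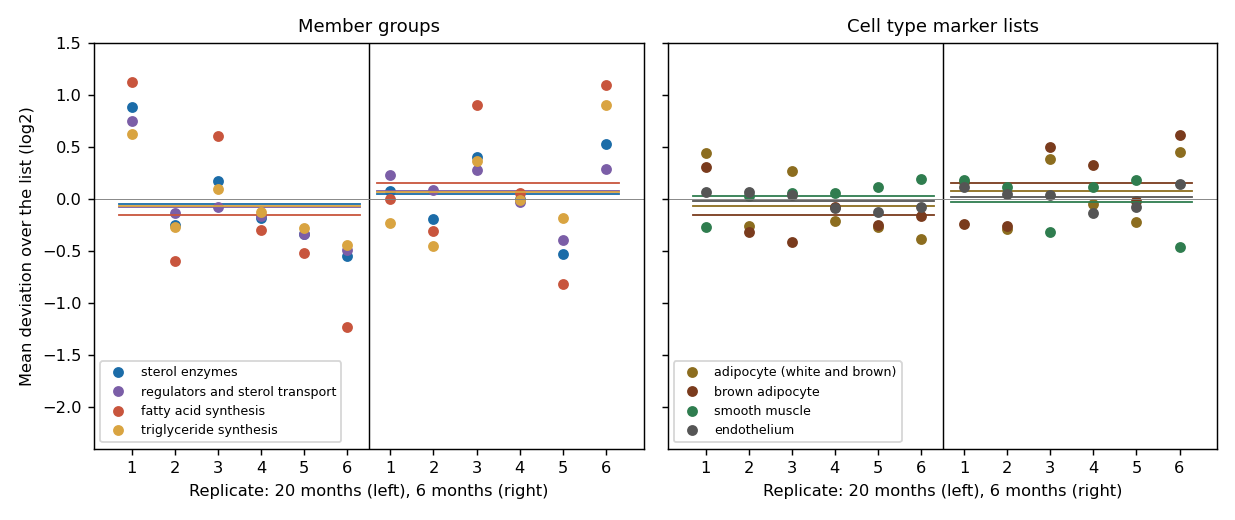
Mean deviation from the 12-array mean (log2) over each group of the 32 genes (left panel) and over 4 cell type marker lists (right panel) on each array, 20 months left and 6 months right of the vertical line, with horizontal lines at the age means. The fatty acid genes reach 1.12 in 20 months replicate 1 and -1.23 in 20 months replicate 6, while the adipocyte list stays between -0.39 and 0.45.

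The rest of the pathway was also without a called change. Of 13 other sterol genes tested, 0 passed in either direction, and the smallest p belonged to Soat1, which esterifies cholesterol for storage, at 0.25 (SE 0.11, adjusted p 0.605 in limma). Ebp and Sc5d, later enzymes of the pathway, differed by -0.13 and -0.23. Of 8 genes of sterol efflux and LXR signalling, 0 passed. The 4 with the smallest p were Apoe, a lipoprotein component, Abcg1, a sterol exporter, Nr1h3, the receptor LXR alpha, and Lpcat3, a phospholipid acyltransferase, and all lay between -0.13 and -0.15. Of 17 other fatty acid genes, 0 passed. Fads1, a desaturase of polyunsaturated fatty acids, differed by 0.19 (SE 0.07, adjusted p 0.488 in limma), Mlxipl, the carbohydrate-sensing factor ChREBP, by -0.55 (SE 0.37), and Elovl7 by -0.13. Elovl3, an elongase of brown fat, differed by -1.37 (SE 0.69, adjusted p 0.671 in limma). Of 11 other triglyceride genes, 0 passed, with Agpat3 at -0.36, Lpin3 at -0.20, Agpat1 at -0.15 and Agpat4 at 0.16. The listed genes Soat2, Npc1l1, Elovl2 and Gpat2 did not pass the filter on dim probes and were not tested.

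Genes with more than 1 probe had no called probe, although the probes of a gene did not always track each other. There were 46 probes for the 32 genes, 45 of which were tested and 0 called, beside 0.257% of all 27583 probes. The 3 Me1 probes correlated at 0.99 or more with the one used. The second probes of Srebf2 and Hsd17b7 were above background on all 12 arrays but correlated at 0.76 and 0.70 with the ones used. For Srebf2 the second probe gave 0.36 against 0.09, and for Hsd17b7 0.20 against 0.18. The second Fdft1 probe was above background on 6 of 12 arrays and correlated at -0.02 with the one used, and the second Stard4 probe was above background on none.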

How the data were processed

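The authors' scans were read out by Agilent Feature Extraction 10.7.1.1 and place probes on mm9, per the file headers. The deposited intensity is its processed green signal, background-subtracted and not scaled between arrays. A deposited log2 value table, whose steps are not given in the sources used here, served as an alternative.

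The intensity was taken to log2, outlier-flagged spots were left out (51 of 55681 probes lost all), repeat spots were averaged per probe, and values were set relative to the 75th percentile of the gene probes of that array. Probes well above background on at least 6 of 12 arrays were kept (27583), and the brightest probe stood for its gene. limma 3.58.1 (lmFit, eBayes; R 4.3.3; data.table version 1.17.8) compared the ages with no other term, adjusted over all 16921 genes, and was tested on simulated data. Correlations used 100000 two-sided permutations. Precision is limited by the number of arrays, 6 per age. The labels say that the RNA came from individual mice. Alternatives were other background corrections, scalings, filters and probe rules, slide and replicate blocks, slides alone, array weights, trend and robust settings, and left-out arrays.

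All 32 members are named, with the 4 smallest p of each related list and Adipoq, Ucp1, Myh11 and Pecam1, of which 1 related gene is not reported here. Members, lists and rules were chosen with earlier results of these data known. The endothelial list held 0 called genes of 8 (median change -0.05, limma).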

Additional observations from a re-analysis of the deposited data

Results flagged for a closer look

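Within an age, 4 genes had 1 mouse whose gap to the next exceeded Dixon's 95% critical value for 6 samples. Chance marks about 1 in 20 independent groups, and 72 groups (36 genes at 2 ages) were looked at. These groups vary together, so the count of 4 cannot be weighed against that rate. All 4 were the highest value at 20 months and came from replicate 1, the array that was also high in heart muscle markers. Hmgcs1 was at 5.05 there, with the next mouse at 4.65. Mvd was at 1.21, with the next at -0.06. Insig1 was at 2.80, with the next at 1.27, and Stard4 at 0.86, with the next at -0.01. The 4 marks share 1 array and are not independent. Their cause was not tested.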

How the results depend on the processing

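Over 28 alternatives, 0 of 32 genes passed in each of the 896 fits of a member, with a lowest adjusted p of 0.214 in limma. The estimate changed sign 61 times, in 27 genes. The count over all genes, 53, was 32 under median scaling, 21 with no filter on dim probes, 122 with array weights, 1, 1 and 0 on slides 1, 2 and 3 alone, and 30 without the 3 arrays high in other tissues' markers. It ran from 21 to 58 over the 12 fits that leave out 1 array. Over the same 12 fits the sterol median ran from -0.31 to -0.03, the fatty acid and triglyceride median from -0.52 to -0.10, and their difference from 0.05 to 0.24. On slide 1 alone these medians were 0.21 and 0.06. Correlated members counted 1 for Ucp1 and 11 for Myh11 with normexp, 2 for Adipoq with quantile normalization and 2 with the deposited value table, and 0 for Myh11 and 1 for Pecam1 under median scaling.

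Replicate numbers did not pair the mice: same-numbered deviations correlated at 0.01, 0.32, 0.08, 0.14, 0.02 and -0.36, and 1 of 6 correlated best with its own number. The replicate block left 6 genes called over all genes and 0 members.

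Estimates changed sign as follows. With quantile normalization, Dgat2 was 0.0600 and Myh11 0.0644. With median scaling, Myh11 was 0.00891. With the deposited value table, Dgat2 was 0.0612 and Myh11 0.0653. On slide 1 alone, Hmgcs1 was 0.21, Idi1 0.0861, Fdps 0.0958, Lss 0.25, Cyp51 0.0479, Dhcr7 0.05005, Mvk 0.12, Pmvk 0.0072, Mvd 0.51, Acat2 0.25, Insig1 0.21, Srebf1 0.19, Srebf2 -0.17, Stard4 0.27, Fasn 0.00758, Scd1 0.00918, Scd2 0.057, Thrsp 0.0588, Dgat2 0.21, Gpam 0.0863, Agpat2 0.30, Elovl3 0.44, Ebp 0.00975, Sc5d 0.0849, Abcg1 0.16, Nr1h3 0.0822 and Lpcat3 0.12. On slide 2 alone, Cyp51 was 0.0285, Sc4mol -0.00582, Me1 -0.11 and Lpin3 0.0941. On slide 3 alone, Sqle was -0.16, Fdft1 -0.0147, Sc4mol -0.0587, Hsd17b7 -0.0981, Dgat1 -0.14, Myh11 0.26 and Pecam1 -0.0493. With array weights, Sqle was -0.0178, Sc4mol -0.0148 and Me1 -0.0561. With the mean over probes, Fdft1 was -0.0894. Without the 3 arrays high in heart muscle or T and NK cell markers, Sqle was -0.024, Fdft1 -0.00593, Me1 -0.22, Dgat1 -0.0867, Myh11 0.0639 and Pecam1 -0.0466. Leaving out 1 array gave ranges of -0.20 to 0.27 for Me1, -0.0122 to 0.22 for Dgat1, -0.17 to 0.0394 for Myh11, -0.40 to 0.0114 for Lss, -0.31 to 0.0202 for Dhcr7, -0.31 to 0.0863 for Mvd, -0.067 to 0.0811 for Pecam1, -0.10 to 0.17 for Sqle, -0.0539 to 0.24 for Fdft1, -0.14 to 0.0729 for Dgat2 and -0.0219 to 0.20 for Sc4mol. The cause was not tested.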
